A study of Mus musculus with 20 samples.

Results

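The EGF receptor, 2 related receptors, 6 of their ligands and the receptor inhibitor Errfi1 were followed in RNA-seq of DC2 cells, an immortalized line of distal caput principal cells from the mouse epididymis. The members were the 10 genes of this signalling unit whose symbols were looked up by exact match among the 21509 protein-coding genes of each abundance table. The ligands were Hbegf, Ereg, Areg, Tgfa, Btc and Epgn, the receptors were Egfr, Erbb2 and Erbb3, and the inhibitor was Errfi1. In the first experiment, 6 libraries of cells put under laminar shear for 3 hours, at 1 dyn/cm2 (flow), were set against 6 of cells kept without flow (static). In the second, 4 libraries of cells transfected with Ift88 siRNA, a mixture against an intraflagellar transport gene needed to build primary cilia, were set against 4 with a scrambled control siRNA. By the study's methods both siRNA groups were exposed to flow, which their labels do not state, so no siRNA library was a static control. All cells came from this 1 line and were held in low-serum medium to induce cilia and grown with dihydrotestosterone. The title and the treatment label of 1 library disagree (flow in the former, static in the latter). Its description ends in FL, as for the other flow libraries, and it was counted by its title as flow replicate 6.

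Ligands of the EGF family are made as membrane-anchored precursors, and metalloproteases, chiefly ADAM10 and ADAM17, cut them free. Binding of a ligand joins EGFR with itself or with ERBB2 or ERBB3 and switches on Ras, ERK and PI3K signalling. ERBB2 binds no ligand of its own, and ERBB3 has little kinase activity and signals through its partners. ERK activity raises transcription of Hbegf, Ereg and Areg, so that the pathway can feed itself, and of Errfi1 (Mig6), whose protein binds the EGFR kinase domain and blocks it.

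The label of the cells was checked against marker genes first. Levels are in TPM (a relative transcript level, corrected for transcript length). The water channel Aqp9, a defining marker of principal cells, was at 0.168 TPM in flow and 0.174 TPM in static libraries, and the lipocalin Lcn8 was listed at 0 in all 12. The epithelial surface protein Epcam was at 0.0685 TPM and 0.0592 TPM, while the keratin Krt18 was at 56.4 TPM and 47.7 TPM. The summed TPM of the 5 epithelial markers overlapped between the groups, from 41.6 to 126.9 under flow and from 49.4 to 88.4 in static libraries. The clear cell, basal cell and endothelial lists had no marker at 1 TPM in this experiment. Of the leukocyte list only Cd68 passed 1 TPM, and Ptprc and Adgre1 were at or near 0. DC2 thus carried Krt18 transcripts but hardly any of Aqp9, Lcn8 and Epcam. Each library had between 15292 and 16682 genes above 0, and the tables give no read totals, so the depth and the counting error of each value are unknown.

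Without stimulation by flow the transcripts of the unit were headed by Hbegf and Errfi1. In static libraries Hbegf, which encodes heparin-binding EGF-like growth factor, had a mean of 81.9 ± 7.81 TPM (SD, n = 6) and Errfi1 had 48.9 ± 8.20 TPM. Erbb2 followed at 22.1 ± 2.99 TPM, then Egfr at 7.85 ± 2.27 TPM, Erbb3 at 5.81 ± 1.58 TPM and Tgfa at 5.75 ± 0.845 TPM. The ranges of Egfr and Erbb3 overlapped, as did those of Erbb3 and Tgfa, so their order is not set by these libraries. Ereg at 3.86 ± 0.491 TPM, Btc at 1.99 ± 0.433 TPM, Areg at 0.434 ± 0.470 TPM and Epgn at 0.0926 ± 0.0713 TPM closed the list, with the last pair overlapping. Hbegf alone made up 87.1 ± 0.972% of the summed TPM of the 6 ligands.

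Under flow the order changed for Ereg, which at 11.9 ± 7.50 TPM stood above Egfr, though the ranges of those 2 genes overlapped. Hbegf stayed at the head with 292.2 ± 191.2 TPM and Errfi1 came next with 186.3 ± 133.9 TPM, with overlapping ranges between them. The summed TPM of the 6 ligands was 312.8 ± 198.9 in flow libraries, from 122.3 to 647.1, and 94.0 ± 8.74 in static libraries, from 86.3 to 110.7. These sums did not overlap. The share of Hbegf in the sum was 92.3 ± 2.98% under flow, from 86.8% to 95.2%, and in static libraries it ran from 85.9% to 88.0%, so the shares overlapped. The receptors overlapped between the groups. Over all 12 libraries Erbb2 ran from 17.1 to 26.2 TPM, Egfr from 4.98 to 11.7 TPM and Erbb3 from 2.96 to 8.26 TPM.

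**Figure D1:**
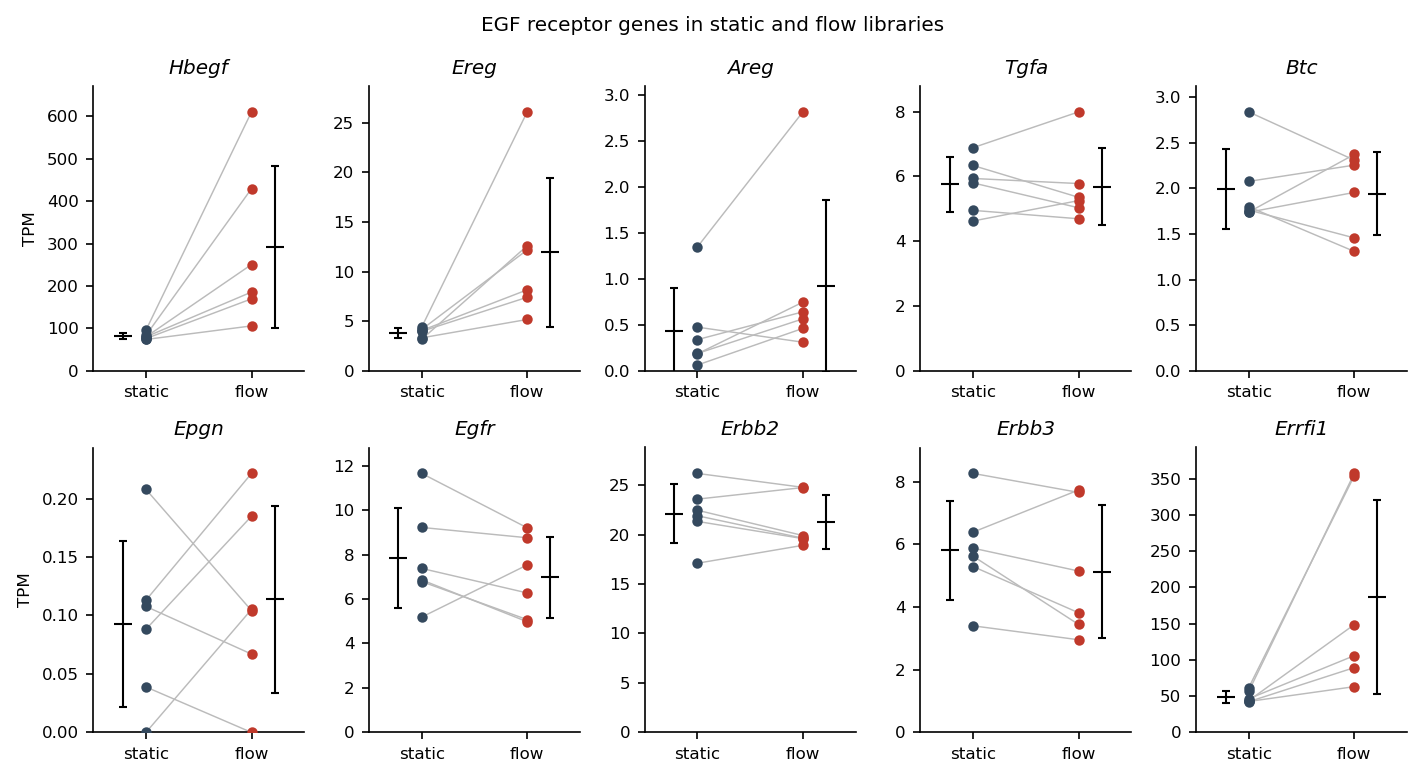
TPM of each of the 10 genes (vertical axes, linear, from 0) in the 6 static and 6 flow libraries; grey lines join libraries with the same replicate number, and black bars give the mean and SD (the lower end is hidden below 0 for Areg). Hbegf, Ereg and Errfi1 are higher in every flow library than in any static library, while the other 7 genes overlap.

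Whether shear stress alters the expression of these genes was asked by comparing flow with static libraries. Of the 10 genes, 8 had a mean of at least 1 TPM and were tested, and Areg and Epgn were not. Hbegf, Ereg and Errfi1 were called higher under flow (limma on log2(TPM + 1), adjusted p under 0.05 and more than 1.5-fold) once the replicate number was used as a block, and 0 of the 10 genes were called without it. In the blocked fit 68 of 11388 genes, or 0.597%, were called higher and 0 were called lower, while 1266 genes, or 11.1%, had an unadjusted p under 0.05. Without the block 12 genes, or 0.105%, were called higher and 0 were called lower, and 438 genes, or 3.85%, had an unadjusted p under 0.05, the 3 genes among them. The groups did not overlap for these 3 genes, against 0.492% of all tested genes in the same direction and 0.0527% in the other. In such bulk libraries, more RNA per cell and more cells with the RNA cannot be told apart.

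Hbegf, on chromosome 18 (chr18:36504927-36515805, minus strand, GRCm38), ran from 74.2 to 96.2 TPM in static libraries, with a median of 80.3 TPM. In flow libraries it ran from 106.1 to 610.6 TPM, with a median of 218.4 TPM. The lowest flow library, replicate 2, was thus only slightly above the highest static one, and replicates 5 and 6 lay far above the rest. The mean level was 3.57 times the static mean, and the log2 fold change was 1.58 (95% confidence interval 0.89 to 2.27; limma adjusted p = 0.0887 without the block and 0.0109 with it). Same-numbered libraries differed on the log2(TPM + 1) scale by 1.20, 0.51, 1.15, 1.63, 2.34 and 2.65 for pairs 1 to 6. Hbegf had the 31st largest log2 fold change of the 11388 genes.

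Ereg encodes epiregulin, a ligand of EGFR and ERBB4, and lies in a cluster of EGF family genes on chromosome 5 (GRCm38): Epgn at chr5:91027464-91035215, Ereg at chr5:91074622-91093646, Areg at chr5:91139599-91148432 and Btc on the opposite strand at chr5:91357261-91402994. Ereg ran from 3.17 to 4.40 TPM in static libraries, with a median of 4.03 TPM, and from 5.18 to 26.1 TPM in flow libraries, with a median of 10.2 TPM. The groups did not overlap, and replicate 6 stood apart at the top. The log2 fold change was 1.25 (95% confidence interval 0.67 to 1.83; limma adjusted p = 0.107 without the block and 0.0214 with it). Pairs 1 to 6 differed by 0.85, 0.51, 0.76, 1.35, 1.70 and 2.33 on the log2(TPM + 1) scale, with the lowest difference in pair 2 and the highest in pair 6 as for Hbegf. The level of Ereg remained far under that of Hbegf, and its share of the summed ligand TPM was 4.11 ± 0.486% in static and 3.94 ± 0.593% in flow libraries.

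The other genes of the cluster did not pass the test. Areg, which encodes amphiregulin, ran from 0.0639 to 1.35 TPM in static libraries and from 0.312 to 2.82 TPM in flow libraries. Its level was higher under flow in 5 of 6 pairs, with pair 1 the exception, and the highest value of each group was that of replicate 6. When genes of any level were admitted, its log2 fold change was 0.37 (95% confidence interval -0.19 to 0.93; limma adjusted p = 1.00). Epgn (epigen) did not exceed 0.222 TPM in any of these 12 libraries and was listed at 0 in both groups at their lowest. Btc (betacellulin) had 1.94 ± 0.459 TPM under flow and 1.99 ± 0.433 TPM in static libraries (log2 fold change -0.03, 95% confidence interval -0.32 to 0.27). Tgfa, the gene of transforming growth factor alpha on chromosome 6, had 5.68 ± 1.19 TPM and 5.75 ± 0.845 TPM (log2 fold change -0.02, 95% confidence interval -0.29 to 0.25). For Btc and Tgfa these intervals leave no room for a change of the size seen in Hbegf or Ereg.

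**Figure D2:**
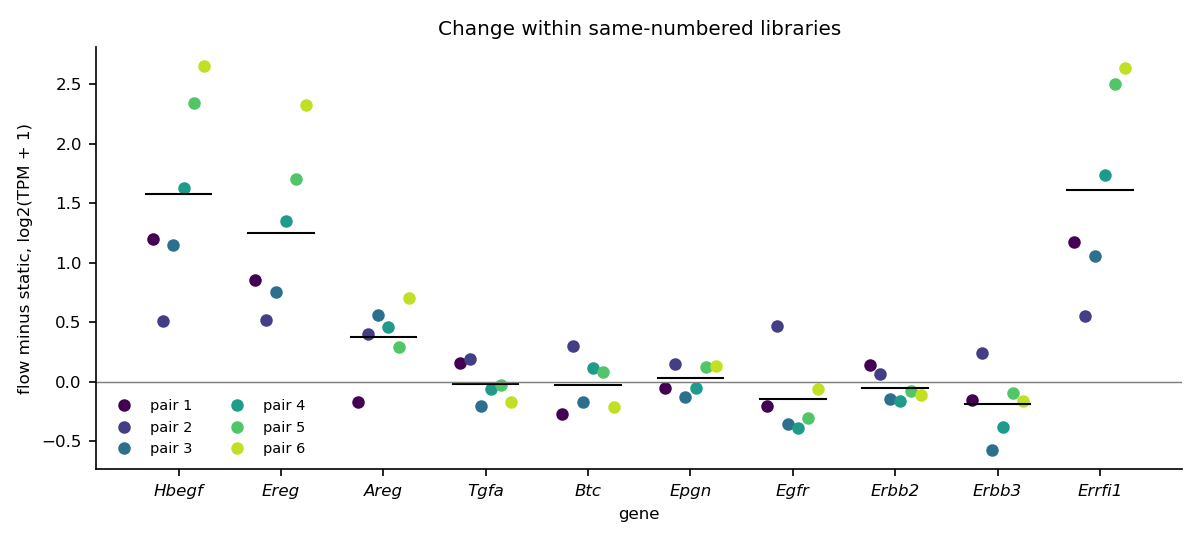
Flow minus static, each flow library against its same-numbered static library, on the log2(TPM + 1) scale (vertical axis) for each of the 10 genes (horizontal axis); points are the 6 pairs and black lines their means. All 6 pairs lie above 0 for Hbegf, Ereg and Errfi1, with pair 2 lowest and pair 6 highest, and Egfr and Erbb3 are below 0 in every pair but pair 2.

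None of the 3 receptors was called in either direction. Egfr (chr11:16752203-16918158, plus strand, GRCm38) ran from 5.19 to 11.7 TPM in static libraries and from 4.98 to 9.20 TPM under flow. It was lower under flow in 5 of 6 pairs and higher in pair 2, and the groups overlapped over most of their ranges. Its log2 fold change was -0.15 (95% confidence interval -0.54 to 0.25; limma adjusted p = 0.999 without the block and 0.671 with it). In the blocked fit without pair 2 it was -0.27 with an adjusted p of 0.0846, which still missed the threshold.

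Erbb3 (chr10:128567523-128589652, minus strand, GRCm38) showed the same pattern over the pairs at a lower level. It had 5.13 ± 2.12 TPM under flow and 5.81 ± 1.58 TPM in static libraries, with 5 of 6 pairs lower and pair 2 higher. The log2 fold change was -0.19 (95% confidence interval -0.66 to 0.29; limma adjusted p = 0.999), and -0.27 without pair 2 in the blocked fit (adjusted p = 0.125). Erbb2 (chr11:98412470-98437716, plus strand, GRCm38), the most abundant of the 3 receptor transcripts, had 21.3 ± 2.73 TPM under flow and 22.1 ± 2.99 TPM in static libraries. Its log2 fold change was -0.05 with the narrowest interval of the 3 receptors, from -0.28 to 0.17.

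Errfi1, the feedback inhibitor, had the largest log2 fold change of the 10 genes. It ran from 42.3 to 61.6 TPM in static libraries, with a median of 45.1 TPM, and from 63.1 to 357.1 TPM in flow libraries, with a median of 127.2 TPM. The lowest flow library, again replicate 2, lay just above the highest static one, and replicates 5 and 6 were the highest. The flow mean was 3.81 times the static mean, and the log2 fold change was 1.61 (95% confidence interval 0.82 to 2.40; limma adjusted p = 0.145 without the block and 0.0117 with it). Pairs 1 to 6 differed by 1.17, 0.55, 1.06, 1.74, 2.50 and 2.64 on the log2(TPM + 1) scale, nearly the values of Hbegf pair by pair. Errfi1 had the 30th largest log2 fold change of the 11388 genes, next to Hbegf.

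The upstream sequences of Errfi1 and Areg are shown because Errfi1 was called in the blocked fit and because the same CRE letters occur upstream of both genes. RefSeq (GRCm38.p6) gave no upstream sequence for Hbegf, Ereg and Erbb3, so those genes were not searched. It gave the 250 bases before the first base of a transcript for the other 7 of the 10 genes, with 2 windows for Errfi1. These were searched on both strands for AP-1 (TGANTCA), CRE (TGACGTCA), EGR (GCGNGGGCG), TEAD (CATTCC) and the CArG box of serum response factor. No letters of 1 motif contain those of another, and no matches overlapped. Capitals mark the matches in the sequences, which read 5′ to 3′ on the plus strand, the strand of both genes. The first Errfi1 window is chr4:150853546-150853795, the second is chr4:150854820-150855069 and lies within another transcript of the gene, outside its exons, and the Areg window is chr5:91139349-91139598.
Errfi1 first start: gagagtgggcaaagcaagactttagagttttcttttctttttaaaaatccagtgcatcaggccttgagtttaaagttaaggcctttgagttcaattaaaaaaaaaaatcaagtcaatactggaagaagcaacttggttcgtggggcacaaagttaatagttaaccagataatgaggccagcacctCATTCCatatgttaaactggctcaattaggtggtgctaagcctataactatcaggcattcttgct
Errfi1 second start: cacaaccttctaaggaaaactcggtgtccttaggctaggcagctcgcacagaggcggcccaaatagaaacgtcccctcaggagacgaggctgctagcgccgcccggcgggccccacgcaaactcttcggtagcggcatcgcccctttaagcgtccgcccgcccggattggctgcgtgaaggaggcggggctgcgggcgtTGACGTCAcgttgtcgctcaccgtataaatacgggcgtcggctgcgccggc
Areg: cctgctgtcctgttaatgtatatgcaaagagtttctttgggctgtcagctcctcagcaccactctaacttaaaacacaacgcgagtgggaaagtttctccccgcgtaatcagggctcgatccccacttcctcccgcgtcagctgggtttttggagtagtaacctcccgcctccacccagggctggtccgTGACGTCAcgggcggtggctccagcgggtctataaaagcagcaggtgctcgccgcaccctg
The second Errfi1 window held the CRE letters from 51 to 44 bases before the start, and the Areg window held them from 61 to 54 bases before it. The first Errfi1 window held the TEAD letters from 65 to 60 bases before the start, and the Erbb2 window, which overlaps an exon, held them on the other strand from 88 to 83 bases before it. No match was found in the windows of Egfr, Tgfa, Btc and Epgn. Over all 32817 windows of this length, CRE letters were in 1.55%, TEAD letters in 12.6%, AP-1 letters in 6.75%, EGR letters in 4.70% and a CArG box in 1.47%.

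The 3 genes that were called varied together across the 12 libraries, in which flow and static libraries are pooled, so the group difference enters each correlation. Pearson's r of log2(TPM + 1) was 0.988 between Hbegf and Errfi1, 0.978 between Hbegf and Ereg and 0.939 between Ereg and Errfi1 (n = 12 libraries). Among all tested genes, those most like Hbegf were Tgif1 (r = 0.991), a homeobox repressor, Csrnp1 (0.990) and Tnfaip3 (0.989), an inhibitor of NF-kappaB signalling. For Errfi1 they were Ier3 (0.994), Zfp36 (0.990), which encodes an mRNA-destabilizing protein, and Csrnp1 (0.989). For Ereg they were Hbegf itself (0.978), the transcription factor gene Srf (0.975) and the urokinase receptor gene Plaur (0.975). The genes most like Egfr were others, Ccdc84 (0.935), Tafazzin (0.927) and Rnf167 (0.927).

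Single libraries moved these values. Without flow replicate 2 all 3 genes were called without a block, with limma adjusted p = 0.00461 for Hbegf, 0.0115 for Ereg and 0.0154 for Errfi1. Without flow replicate 6 the log2 fold changes were 1.32 for Hbegf (adjusted p = 0.0973), 1.00 for Ereg (0.0846) and 1.36 for Errfi1 (0.242), and without flow replicate 5 they were 1.42, 1.20 and 1.36. Over the libraries left out in turn, the adjusted p ran from 0.00461 to 0.232 for Hbegf, from 0.0115 to 0.266 for Ereg and from 0.0154 to 0.350 for Errfi1. With flow replicate 6 read as static, after its treatment label, they were 0.91, 0.65 and 0.95 and none was called (adjusted p = 1). In replicates 1 to 3 only, the log2 fold changes were 0.95 for Hbegf, 0.71 for Ereg and 0.93 for Errfi1, and 0 of the 3 were called (adjusted p = 0.342, 0.866 and 0.237). In replicates 4 to 6 only they were 2.21, 1.79 and 2.29, with Hbegf and Errfi1 called (0.0190 and 0.0316) and Ereg not (0.0504). The difference between these sets was not tested.

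The wider pathway was read from 5 lists. These were chosen with earlier results of these data known, so calls within them are no independent support. Among 10 transcripts used as readouts of ERK activity, 8 were tested, with a median log2 fold change of 0.68 under flow against -0.03 for all tested genes. Phlda1 was called higher with and without the block, and Spry2, Dusp6 and Epha2 were called with it. Phlda1, which encodes a pleckstrin-homology-like protein, had 370.6 ± 203.4 TPM under flow and 72.9 ± 10.9 TPM in static libraries (log2 fold change 2.17, limma adjusted p = 0.00801). Spry2, an inhibitor of receptor tyrosine kinase signalling, had 21.7 ± 11.5 TPM and 6.65 ± 0.820 TPM (log2 fold change 1.41, adjusted p = 0.0839 without the block, 0.0105 with it). Dusp6, the phosphatase that inactivates ERK, had 18.6 ± 8.29 TPM and 6.36 ± 1.55 TPM (log2 fold change 1.32, 0.0699 without the block, 0.00393 with it). The ephrin receptor gene Epha2 had a smaller log2 fold change of 0.66. Like Errfi1, Spry2 and Dusp6 encode negative regulators of the pathway. Dusp4, Ccnd1, Etv4 and Etv5 were tested and not called, and Spry4 and Epha4 were too low to be tested.

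No gene of the other 4 lists was called in either fit. Of all tested genes only 0.105% were called higher without the block and 0.597% with it, so the lack of calls is no result about these lists. The 25 adaptors and Ras-ERK kinases were all tested, and their log2 fold changes ran from -0.20 for Mapk3, which encodes ERK1, to 0.17 for the PI3K subunit gene Pik3cb, with a median of 0.01. Of 10 genes for ligand shedding 8 were tested, from -0.21 for Tspan15, a partner of ADAM10, to 0.03 for Rhbdf1, an iRhom that guides ADAM17. Of 18 genes for inhibition and trafficking at the receptor 17 were tested, from -0.27 for Susd4 to 0.22 for Lrig1, a transmembrane inhibitor of EGFR. Of 6 other ErbB ligand and receptor genes 3 were tested, from -0.14 for Egf itself to 0.26 for the neuregulin Nrg1, which had 28.6 ± 9.65 TPM under flow and 23.3 ± 7.14 TPM in static libraries. Among the members and the lists, the transcripts called in the blocked fit were thus 2 ligands, Errfi1 and 4 ERK readouts, of 68 genes called in all.

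**Figure D3:**
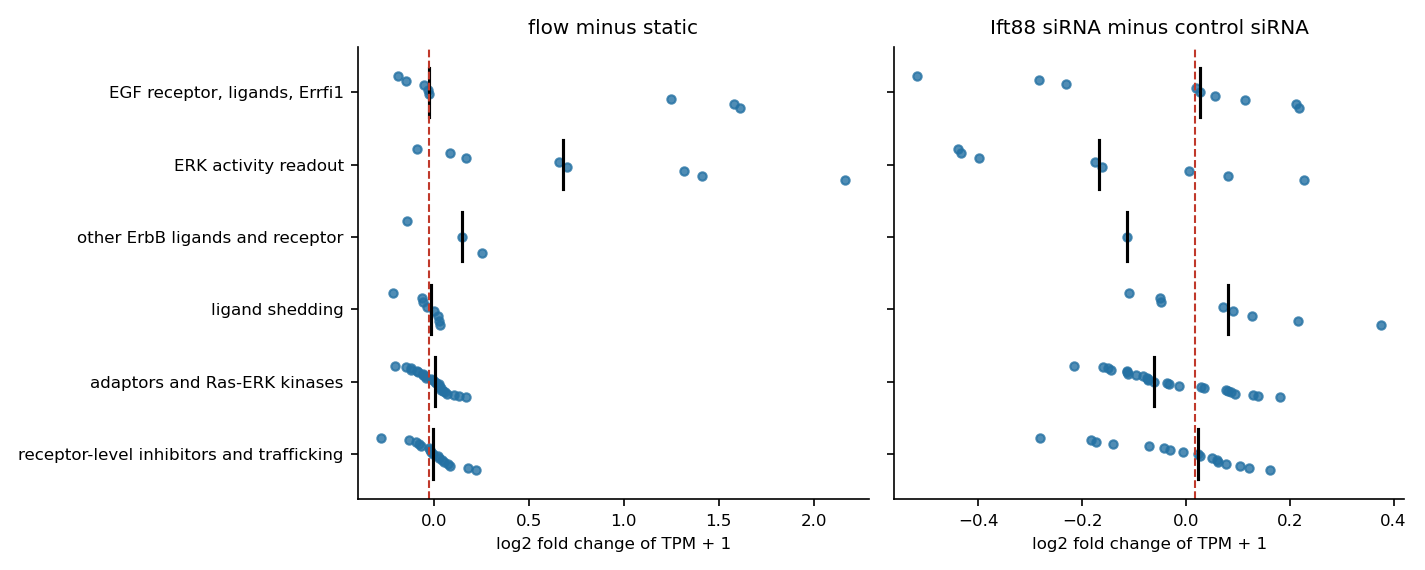
Log2 fold changes of TPM + 1 (horizontal axes) for the tested genes of each list, flow minus static on the left and Ift88 siRNA minus control siRNA on the right, on different scales; points are genes, black bars list medians and the dashed red line the median of all tested genes. Under flow, Hbegf, Ereg, Errfi1 and 5 ERK readouts lie to the right of the rest, and with Ift88 siRNA no listed gene lies below -0.52 or above 0.38.

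The second experiment asked whether gene expression of cells under flow depends on cilia, by silencing Ift88. The paper reports fewer ciliated cells and shorter cilia after this knockdown, so cilia were not fully removed. Ift88 itself was at 1.71, 1.27, 1.28 and 0.917 TPM in the knockdown libraries and at 4.21, 4.08, 4.15 and 4.12 TPM with control siRNA (log2 fold change -1.17, limma adjusted p = 0.00212). The knockdown was therefore present in all 4 libraries and incomplete. Of the 10 genes 9 were tested and 0 were called, against 17 of 11209 genes called higher, or 0.152%, and 8 lower, or 0.0714%. Without the fold threshold 71 genes, or 0.633%, passed, and still 0 of the 9. Of those 9 genes 2, Areg and Ereg, had an unadjusted p under 0.05, against 13.9% of all tested genes.

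Hbegf was the most abundant member here too, at 1062, 982.4, 986.9 and 942.7 TPM in the knockdown libraries and at 948.5, 992.2, 926.3 and 1031 TPM with control siRNA. The groups overlapped, and the log2 fold change was 0.03 (95% confidence interval -0.10 to 0.15; limma adjusted p = 0.875). Errfi1 was at 348.4, 306.5, 300.7 and 293.3 TPM in the knockdown libraries and at 315.2, 321.8, 276.0 and 287.9 TPM with control siRNA. Its log2 fold change was 0.06 (95% confidence interval -0.10 to 0.21; limma adjusted p = 0.773). For both genes the interval for Ift88 siRNA excludes a change of the size between flow and static libraries. No siRNA library was static, so the response of these cells to flow was not measured and its dependence on cilia was not tested. The tables were normalized separately and come from separate experiments, so the higher Hbegf level in these libraries than in the flow libraries was not tested.

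Areg had the widest difference of the 10 genes with Ift88 siRNA. It was at 2.43, 1.69, 1.30 and 2.49 TPM in the knockdown libraries and at 2.87, 2.91, 2.86 and 4.31 TPM with control siRNA. All 4 knockdown libraries lay under the lowest control library, as did those of 2.79% of all tested genes, and for none of the 10 genes did they all lie above the controls, as for 5.79%. The log2 fold change was -0.52 (95% confidence interval -0.89 to -0.15; unadjusted p = 0.00961, limma adjusted p = 0.209), and it did not pass the test. Ereg was at 40.8, 34.8, 37.1 and 31.8 TPM in the knockdown libraries and at 38.8, 50.3, 38.3 and 49.8 TPM with control siRNA. These groups overlapped, and the log2 fold change was -0.28 (95% confidence interval -0.52 to -0.05; limma adjusted p = 0.277).

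**Figure D4:**
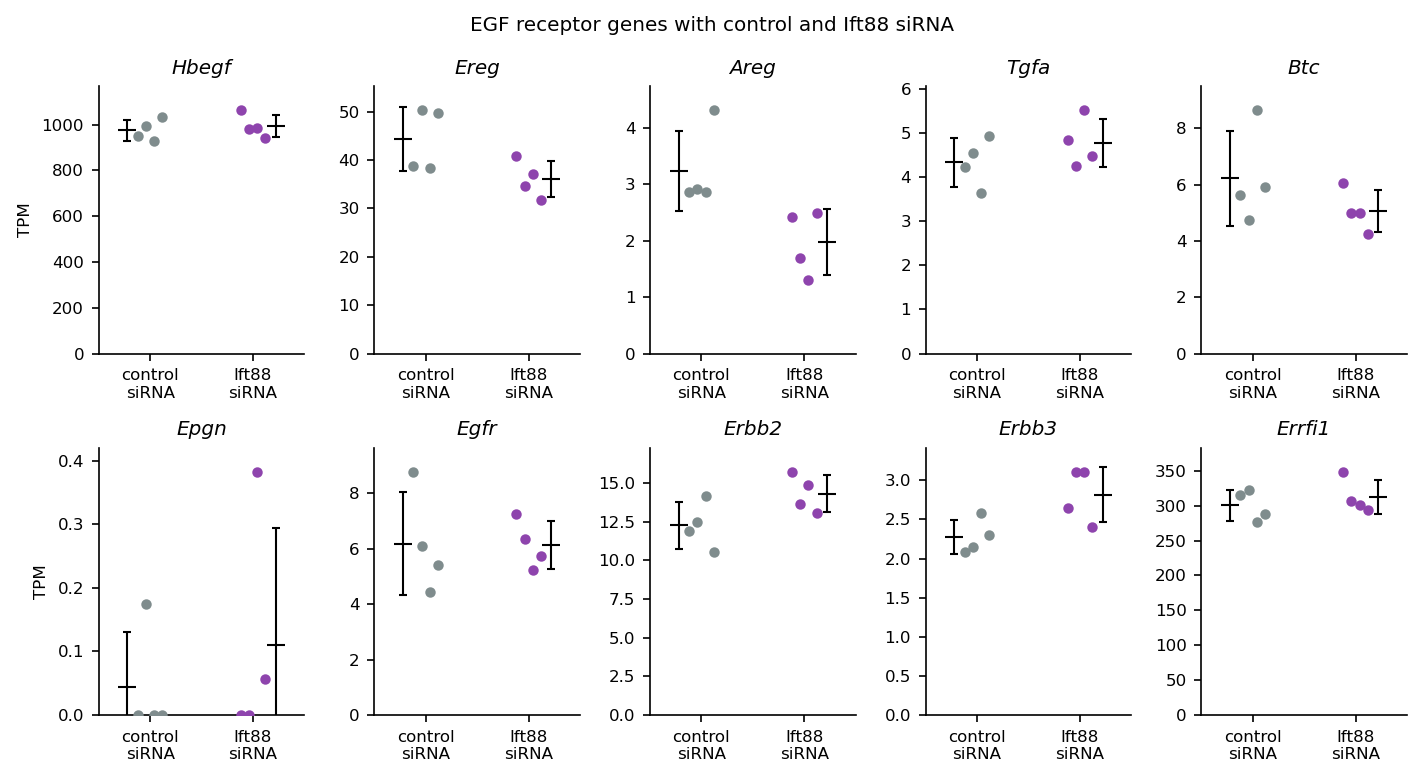
TPM of each of the 10 genes (vertical axes, linear, from 0) in 4 control siRNA and 4 Ift88 siRNA libraries; points are libraries and black bars the mean and SD (the lower end is hidden below 0 for Epgn). The groups overlap for every gene but Areg, whose 4 Ift88 siRNA libraries lie below the control libraries.

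The remaining ligands and the receptors overlapped between the siRNA groups. The knockdown libraries had more genes above 0 (15713 to 16682) than the control libraries (15292 to 15382), and the part of this difference in the values of low genes was not tested. Btc had 5.08 ± 0.744 TPM in the knockdown libraries and 6.23 ± 1.69 TPM with control siRNA (n = 4 each), and Tgfa had 4.77 ± 0.548 TPM and 4.33 ± 0.550 TPM. Epgn was listed at 0 in 2 of the 4 knockdown libraries and in 3 of the 4 control libraries. Egfr had 6.15 ± 0.871 TPM and 6.18 ± 1.86 TPM (log2 fold change 0.02, 95% confidence interval -0.34 to 0.38). Erbb2 had 14.3 ± 1.20 TPM and 12.3 ± 1.52 TPM, with a log2 fold change of 0.21 (95% confidence interval -0.02 to 0.44; limma adjusted p = 0.405). Erbb3 had 2.82 ± 0.348 TPM and 2.28 ± 0.219 TPM, with a log2 fold change of 0.22 (95% confidence interval -0.06 to 0.49; limma adjusted p = 0.467). Neither Erbb2 nor Erbb3 passed the test.

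In the wider pathway no gene of the 5 lists was called with Ift88 siRNA, against 0.152% of all tested genes called higher and 0.0714% called lower. The ERK readouts had a median log2 fold change of -0.17, against 0.02 for all tested genes. Of the 8 tested, 6 had an unadjusted limma p under 0.05, against 13.9% of all tested genes. Among these 6, Spry2, Etv4, Etv5, Ccnd1 and Dusp6 were lower with Ift88 siRNA and Phlda1 was higher. In the fit with the replicate block Dusp6 dropped out of this set, and the share of all tested genes was 18.2%. Spry2 had 210.4 ± 25.2 TPM in the knockdown libraries and 288.3 ± 58.0 TPM with control siRNA (log2 fold change -0.44, limma adjusted p = 0.135 without the block and 0.0248 with it, under the 1.5-fold threshold in both), and its groups did not overlap. Phlda1 had 1362 ± 55.7 TPM and 1164 ± 78.8 TPM (log2 fold change 0.23, limma adjusted p = 0.128), the opposite direction. Rhbdf2, an iRhom partner of ADAM17, had the highest log2 fold change among the shedding genes at 0.38, with 12.6 ± 0.921 TPM and 9.48 ± 0.876 TPM (limma adjusted p = 0.128), and Adam9 the lowest at -0.11. Among the kinases and adaptors the highest log2 fold change was 0.18 for Akt2, and among the inhibitors and trafficking genes the values ran from -0.28 for Socs5 to 0.16 for Hgs. Nrg1, the 1 tested gene of the other ErbB ligands, had a log2 fold change of -0.11.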

How the data were processed

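RNA-seq libraries of DC2 cells (6 flow, 6 static, 4 Ift88 siRNA, 4 control siRNA) were grouped by their sample titles. The authors deposited TPM, 1 table per experiment, for protein-coding genes. Per the study's methods they were made with Trimmomatic, then kallisto on the Ensembl mouse transcriptome. The submitters' processing notes instead name fastp 0.20.0, and also FastQC 0.11.8, MultiQC 1.8 and kallisto 0.46.2. TPM are no counts, so no count test was run, and they hold no read totals.

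From the deposited TPM, log2(TPM + 1) was tested with limma 3.58.1 in R 4.3.3 (lmFit, eBayes with trend) for genes averaging at least 1 TPM, and p-values were adjusted by Benjamini-Hochberg over all tested genes. Genes were called at an adjusted p under 0.05 and more than 1.5-fold. Fold changes on this scale understate those of low genes. The procedure was tested on simulated data. Tables and plots were made in Python 3.11.15 with pandas 2.3.3, numpy 2.4.6 and matplotlib 3.10.9.

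The study calls the libraries of the flow experiment experimental replicates without saying how they were separated, so p-values measure the spread between these libraries. Over genes, the deviations of same-numbered flow and static libraries from their group means correlated at 0.294, 0.463, 0.425, 0.468, 0.662 and 0.600, and since all were above 0.1 the numbers were taken to pair them. Replicate 3 correlated better with another number (0.509) than with its own, the other 5 best with their own. No pairing is named by the study, so both fits are given.

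The members, the lists and the tests were chosen with earlier results of these data known. Named genes are the members, Ift88, the markers of the cells, up to 4 called genes per list or otherwise its highest and lowest log2 fold change, and the 3 genes most correlated with Hbegf, Ereg, Errfi1 and Egfr. Dusp4, Ccnd1, Etv4, Etv5, Spry4 and Epha4 were named after their values were seen, to account for that list. Some genes that this rule names are not reported here. Gene positions are from GENCODE on GRCm38, and windows are from RefSeq. The alternatives were another pseudocount, filter or scaling, library weights, no fold threshold, the block, subsets of replicates, the other label of flow replicate 6 and leaving out each library.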

Additional observations from a re-analysis of the deposited data

Results flagged for a closer look

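Of the 40 groups examined (10 genes in 4 groups), 8 had a highest library that stood far from the others by Dixon's criterion, and none had such a lowest library. Chance alone meets this criterion in about 1 of 20 groups if values are normally distributed. TPM were taken unlogged and some of these groups are near 0, so the 8 cannot be set against that rate. Under flow, Ereg was at 26.1 TPM in replicate 6, with the next library at 12.6 TPM, and Areg was at 2.82 TPM in the same library, with the next at 0.748 TPM. Static replicate 6 had the highest Areg, at 1.35 TPM against 0.476 TPM in the next library, and the highest Btc, at 2.84 TPM against 2.08 TPM. Flow replicate 6 is the library whose title and treatment label differ, and static replicate 6 shares its number. Tgfa was at 7.99 TPM in flow replicate 2, with the next library at 5.78 TPM. With control siRNA, Areg was at 4.31 TPM in replicate 4, with the next library at 2.91 TPM. Epgn was at 0.382 TPM in Ift88 siRNA replicate 3 and at 0.174 TPM in control siRNA replicate 2, where the other control libraries were listed at 0.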

How the results depend on the processing

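The log2 fold changes of Hbegf, Ereg and Errfi1 between flow and static libraries were positive under every alternative run. Called genes of the 10 numbered 0 in the unblocked fit, and 3 with library weights, with the replicate block and with the replicate block without pair 2, 2 in replicates 4 to 6 only, and from 0 to 3 when each library was left out, where flow replicate 2 gave the 3. With Ift88 siRNA 0 of the 10 were called under any alternative. Over all genes, 12 were called with flow, against 2 without the filter on low values, 28 with median-of-ratios scaling, 86 with library weights (75 higher, 11 lower), 68 with the replicate block, 0 with flow replicate 6 as static (181 at an unadjusted p under 0.05), 3 in replicates 1 to 3 only, 51 in replicates 4 to 6 only and 193 with the block without pair 2 (135 higher, 58 lower). Leaving out 1 library gave 5 to 87, the ends being flow replicates 4 and 2, with 6 without static replicate 1, 2 or 4 and 7 without static replicate 3. With Ift88 siRNA 25 genes were called (17 higher, 8 lower), against 22 with median-of-ratios scaling (12 higher, 10 lower), 6 without the filter, 48 with library weights, 44 with the replicate block and 71 with no fold threshold. Leaving out 1 library gave 11 to 23, with 11 without Ift88 siRNA replicate 1 (4 higher, 7 lower) or control replicate 1 (7 higher, 4 lower), 12 without control replicate 4, 13 without Ift88 siRNA replicate 2 and 14 without control replicate 3. Why the counts moved was not tested. In the siRNA libraries the deviations of same-numbered libraries correlated at 0.0464, 0.00276, 0.259 and 0.176, with those of replicates 1 and 2 close to 0, so these libraries share only a number. Replicates 3 and 4 but not 1 and 2 correlated best with their own number. The block changed no call among the 10 genes there, and the limma adjusted p of Areg was 0.0972 with it. The study states only a mean depth, so the counting error of low values in single libraries, such as those of Areg and Epgn, could not be given.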
